A study of Mus musculus with 8 samples.

Results

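The 10 small leucine-rich proteoglycan genes Kera, Lum, Dcn, Bgn, Fmod, Prelp, Ogn, Omd, Aspn and Epyc were described in naive mouse corneas. They were picked by name, by matching the Ensembl gene identifiers of the deposited table to symbols in a GRCm38 annotation, and all 10 were found among the 54532 genes listed, of which 31314 were not at 0 in every cornea. The study sequenced total RNA of 4 corneas of BALB/cN mice, a strain with few corneal lymphatic vessels, and of 4 corneas of C57BL/6N mice, a strain with many, because these are the parents of the intercross in which it mapped loci for lymphatic vessel growth. All mice were male and untreated, the strains carried no engineered allele, and the animals' age at RNA sampling is not given in the labels. Each value is an rlog value, the regularized log2 expression that DESeq2 makes from normalized read counts, so a difference of 1 is a change of about 2-fold. The table gives no read counts, so the depth behind each value is unknown here. The sources used here do not say that the corneas of a strain came from separate animals, so p-values measure only the spread between these samples, which may be technical.

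Small leucine-rich proteoglycans are secreted proteins of the extracellular matrix whose core, built of leucine-rich repeats, binds collagen fibrils. In the corneal stroma, the collagen layer between epithelium and endothelium, the keratocytes make them, and their keratan sulfate or dermatan sulfate chains help to keep fibrils thin and evenly spaced, on which the transparency of the cornea depends. Class I holds decorin (Dcn), biglycan (Bgn) and asporin (Aspn), class II holds keratocan (Kera), lumican (Lum), fibromodulin (Fmod), PRELP (Prelp) and osteomodulin (Omd), and class III holds osteoglycin (Ogn, also called mimecan) and epiphycan (Epyc). Keratocan, lumican and osteoglycin carry the keratan sulfate of the cornea, and decorin and biglycan carry dermatan or chondroitin sulfate.

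Some corneas stood apart from the rest of their strain. BALB/cN replicate 2 and C57BL/6N replicates 3 and 4 had less of the transcripts of the stroma: the mean rlog value of 18 other stromal genes (collagens I, III, V, VI and XII and further fibroblast genes) was 11.40 in that BALB/cN cornea against 12.26 to 12.73 in the other BALB/cN corneas, and 10.89 and 10.81 in those C57BL/6N corneas against 12.63 and 12.68 in replicates 1 and 2. Means of 6 corneal endothelium genes were lowest in the same 3 corneas, at 11.22, 11.09 and 10.85 against 11.88 to 12.21 in the others. The 10 epithelial markers differed little, with means of 15.53 to 15.71 in all 8 corneas. In whole-tissue RNA, fewer cells of a type and less RNA per cell cannot be told apart. BALB/cN replicates 1 and 4 held lens and pigment cell transcripts, with Tyrp1, a melanin enzyme, at rlog values of 11.68 and 12.65 against 6.95 and 6.25 in replicates 2 and 3. Kera was at 14.45 and 14.44 in replicates 1 and 4, at 14.36 in replicate 3 and at 11.32 in replicate 2. The part of lens and pigment cell transcripts in its values was not tested. C57BL/6N replicate 2 held Gfap and Mobp, genes of glia, at 10.93 and 9.89, against at most 3.97 and 6.46 in the other corneas of its strain.

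The members fell into an abundant and a scarce group. Compared per length, as the mean rlog value minus the log2 of the summed exon length in kilobases, Dcn (11.95) and Kera (11.89) were highest, followed by Bgn (10.66), Lum (9.82), Fmod (9.05), Prelp (8.97) and Ogn (8.14). Omd (2.57), Aspn (0.94) and Epyc (-2.35) were far below. The order of Dcn and Kera changed with the cornea. Dcn was the higher one in BALB/cN replicate 2 and C57BL/6N replicates 3 and 4, the 3 corneas of low stromal transcripts, and Kera in the other 5. Fmod was above Prelp in 4 of 8 corneas, and Lum was above Fmod in 6, all but C57BL/6N replicates 3 and 4. The remaining neighbours kept their order in all 8. The order at the top depended on the length used: with the longest transcript in place of the summed exons, Dcn (12.27) was above Kera in all 8 corneas, and Bgn (11.85) was above Kera in 3.

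**Figure D1:**
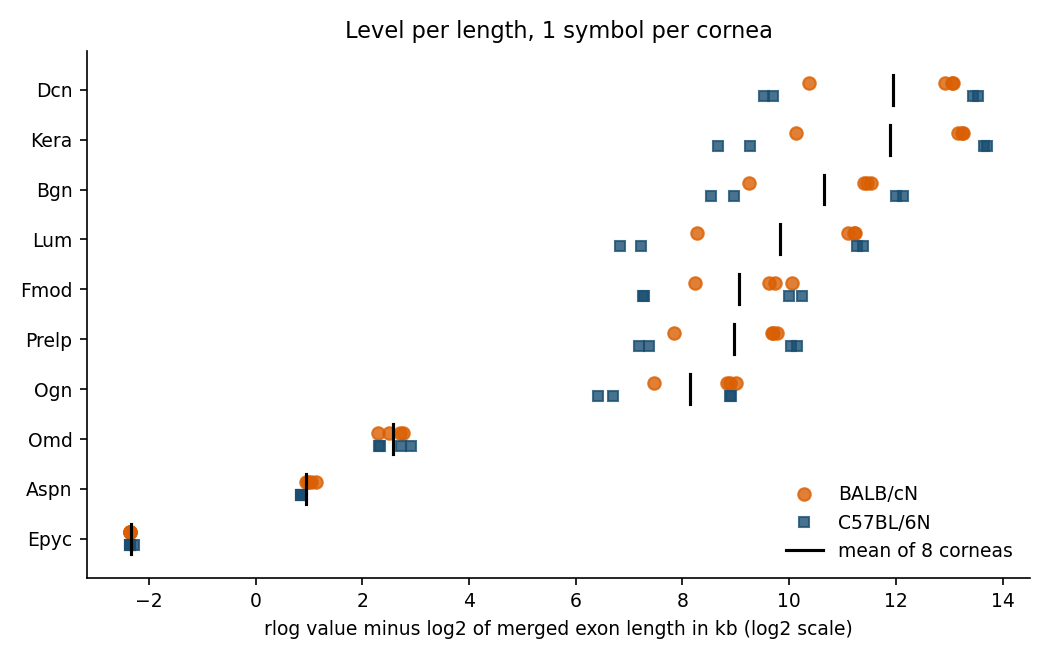
Level of each small leucine-rich proteoglycan per length, as the rlog value minus the log2 of the summed exon length in kb (x axis, log2 scale), with 1 circle per BALB/cN cornea, 1 square per C57BL/6N cornea and a bar at the mean of the 8. Dcn (11.95) and Kera (11.89) are at the top, Ogn is at 8.14 and Omd, Aspn and Epyc are at 2.57 or lower.

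Kera, whose product is nearly confined to the cornea, had rlog values of 14.45, 11.32, 14.36 and 14.44 in BALB/cN replicates 1 to 4. Its values in C57BL/6N replicates 1 to 4 were 14.90, 14.85, 9.85 and 10.46. Lum, which lies next to Kera and is needed for corneal clarity in mice, was at 12.40, 9.57, 12.52 and 12.51 in BALB/cN and at 12.68, 12.56, 8.13 and 8.52 in C57BL/6N. Both genes were thus high in 5 corneas and low in the 3 of low stromal transcripts, and the strains overlapped.

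Decorin, the class I proteoglycan that binds collagen I and the growth factor TGF-beta, followed the same order of corneas. Dcn values were 15.60, 12.91, 15.46 and 15.61 in BALB/cN and 16.08, 15.98, 12.07 and 12.24 in C57BL/6N. For Bgn, which can signal through Toll-like receptors when released from the matrix, they were 14.07, 11.86, 14.00 and 14.15 in BALB/cN and 14.74, 14.62, 11.14 and 11.57 in C57BL/6N. In both genes C57BL/6N replicates 1 and 2 were the highest of the 8 corneas and replicates 3 and 4 the lowest, so the BALB/cN values fell between those of the other strain.

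Fmod, whose product competes with lumican for a site on collagen, was at 11.78, 9.95, 11.34 and 11.46 in BALB/cN and at 11.96, 11.72, 9.01 and 8.98 in C57BL/6N. Prelp, which links basement membranes to the matrix beneath, was at 11.56, 9.70, 11.54 and 11.63 in BALB/cN and at 11.88, 12.01, 9.04 and 9.23 in C57BL/6N. The class III member Ogn was at 10.37, 8.83, 10.25 and 10.20 in BALB/cN and at 10.26, 10.24, 8.05 and 7.78 in C57BL/6N. These genes repeated the pattern with a smaller drop, and Ogn was the only one of the 7 abundant members whose 5 high corneas overlapped between strains with the highest value in BALB/cN.

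Omd, known mainly from bone and tooth, was at 3.67, 3.47, 3.87 and 3.93 in BALB/cN and at 4.09, 3.89, 3.48 and 3.50 in C57BL/6N, so the same 3 corneas were lowest within a range of less than 1. Aspn, a class I member without the usual attachment site for sugar chains, was at 2.36, 2.22, 2.17 and 2.26 in BALB/cN and at 2.08, 2.08, 2.11 and 2.08 in C57BL/6N. The 4 BALB/cN corneas were the highest, at a low level. Within BALB/cN its highest values were in replicates 1 and 4, the corneas with lens and pigment transcripts, and in C57BL/6N in replicate 3, where the lens gene Cryaa was also highest (7.59), and the part of these transcripts in its values was not tested. Epyc, a cartilage proteoglycan, was at -1.0 in every cornea but C57BL/6N replicate 1 (-0.92), and its mean below 0 kept it out of the tests.

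**Figure D2:**
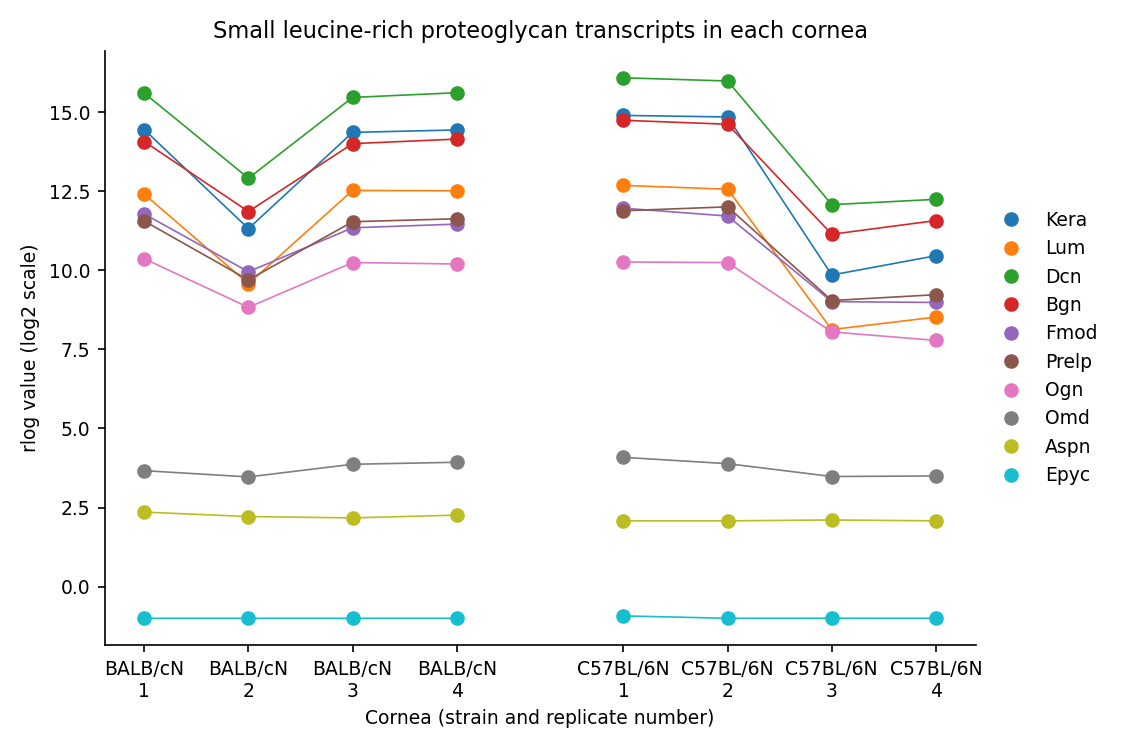
The rlog value (y axis, log2 scale) of the 10 genes in each of the 4 BALB/cN and 4 C57BL/6N corneas (x axis), with 1 point per cornea and thin lines that join the corneas of a strain for reading only. The 7 abundant genes dip in BALB/cN replicate 2 and C57BL/6N replicates 3 and 4, Kera from 14.45 to 11.32 and from 14.90 to 9.85, while Omd, Aspn and Epyc stay below 4.10.

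For the 7 abundant members the spread within a strain exceeded the difference between strains. The highest and lowest corneas differed for Kera by 3.13 on the log2 scale (8.75-fold) in BALB/cN and by 5.04 (33.0-fold) in C57BL/6N. The range of Lum was 2.95 and 4.56 (23.5-fold in C57BL/6N), that of Dcn 2.70 and 4.01 (16.1-fold) and that of Bgn 2.29 and 3.60 (12.1-fold). Ranges were smaller for Prelp (1.93 and 2.96), Fmod (1.83 and 2.98) and Ogn (1.54 and 2.48). Keratocan and lumican thus varied most and osteoglycin least among the abundant members. BALB/cN replicate 2 was the lowest of its strain in all 7 of them, C57BL/6N replicate 3 in 5 and replicate 4 in the other 2, Fmod and Ogn.

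Few genes varied as much. Among the 25402 genes tested, Kera, Lum and Dcn had the 2nd, 3rd and 4th largest range in C57BL/6N, behind Gfap, which was high in replicate 2 alone, and Bgn ranked 10. Apod (3.82), Dpt (3.71), Mgp (3.70) and Agtr2 (3.68), outside the family, ranked 6 to 9. They too were low in C57BL/6N replicates 3 and 4. In BALB/cN, where lens and pigment transcripts also varied, Kera ranked 53, Lum 62, Dcn 80 and Bgn 121. The median range of all genes tested was 0.20 in BALB/cN and 0.23 in C57BL/6N, and that of genes averaging 8 or more was 0.20 and 0.24. Medians were 1.02 and 2.02 for the 18 stromal reference genes, 0.79 and 1.37 for the corneal endothelium and 0.23 and 0.21 for the epithelium. All 7 abundant members exceeded the median of the stromal reference in both strains. In C57BL/6N, Sparc (2.94), Mmp2 (2.77), Angptl7 (2.74) and Ptgds (2.59) of that reference ranged more widely than Ogn (2.48).

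**Figure D3:**
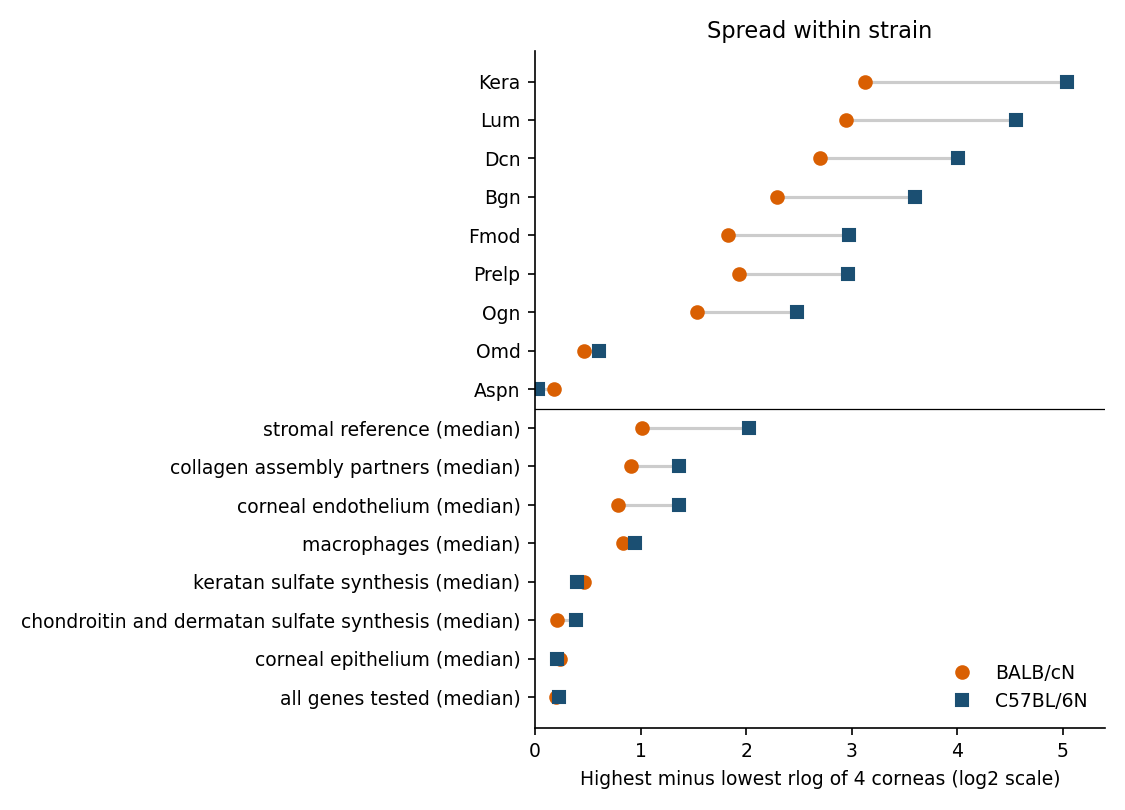
Highest minus lowest rlog value among the 4 corneas of a strain (x axis, log2 scale) for the 9 members tested and, under the line, the median over other gene lists, with circles for BALB/cN and squares for C57BL/6N. Kera reaches 3.13 and 5.04, the stromal reference 1.02 and 2.02 and all genes 0.20 and 0.23.

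The members kept unequal pace with collagen and with one another. Kera minus Col1a1, a chain of collagen I, was -2.65 to -2.42 in 5 corneas, and -4.70, -5.44 and -4.92 in BALB/cN replicate 2 and C57BL/6N replicates 3 and 4. Ogn minus Col1a1 stayed between -7.60 and -6.50 in all 8 corneas. Kera exceeded Lum by 1.72 to 2.28 in every cornea, whereas Kera minus Ogn was 1.80 to 2.68 in the 3 corneas and 4.08 to 4.63 in the other 5. The neighbours Kera and Lum therefore moved nearly in step, and Ogn moved nearly in step with collagen I.

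These differences changed the make-up of the proteoglycan transcripts. The shares use the summed exon length, which for Bgn is 6099 bases against 2666 in its longest transcript. Shares by the longest transcript were not tested, so the percentages hold for this length only. As a share of the summed level per length of the 10 genes, Dcn was steady at 32.1 to 36.2%. The share of Kera was 37.6 to 38.9% in 5 corneas and 27.5% in BALB/cN replicate 2, 19.9% in C57BL/6N replicate 3 and 24.6% in replicate 4. Bgn took 10.9 to 12.8% in the 5 corneas and 15.0, 18.1 and 19.9% in the other 3. Lum ranged from 5.6 to 9.96%, Fmod from 3.06 to 7.64%, Prelp from 2.97 to 7.16% and Ogn from 1.36 to 5.07%, with the highest shares of Fmod, Prelp and Ogn in the 3 corneas of low stromal transcripts. Together Dcn, Kera, Bgn and Lum made up 79.8 to 92.2%. The stromal reference and corneal endothelium means were lowest in the same 3 corneas, and their part in these shares was not tested.

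**Figure D4:**
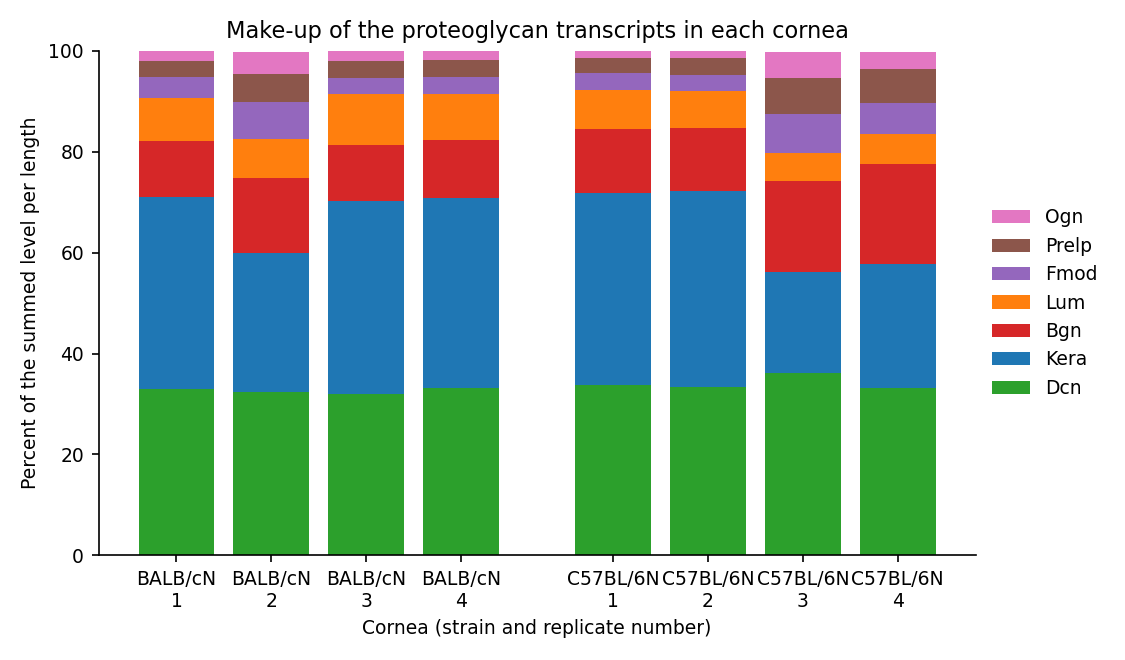
Share of each of the 7 abundant genes in the summed level per length of the 10 genes (y axis, percent, by summed exon length) in each cornea (x axis, strain and replicate number). Dcn keeps 32.1 to 36.2% in all corneas, Kera drops from 37.6% or more to 19.9 to 27.5% in BALB/cN replicate 2 and C57BL/6N replicates 3 and 4, and the shares of Bgn, Fmod, Prelp and Ogn are highest there.

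Between the strains, 0 of the 9 members tested were called higher and 0 lower in BALB/cN by the limma fit at an adjusted p of 0.01, where 2.83% of all 25402 genes tested were called higher and 2.91% lower (5.74% in all). At an unadjusted p under 0.05, the limma fit counted 1 of 9, Aspn, beside 23.7% of all genes. The difference, BALB/cN minus C57BL/6N, was positive in 8 of 9, beside 13407 of the 25402 genes tested. Its median was 0.72 beside 0.01 over all genes tested. Of the 18 stromal reference genes, 17 were positive. The 7 abundant members were low in the same 3 corneas, so their directions are not separate results. The difference was 1.13 ± 1.25 (SE, limma adjusted p = 0.633) for Kera, 1.28 ± 1.15 (adjusted p = 0.548) for Lum, 0.80 ± 1.04 (adjusted p = 0.687) for Dcn and 0.50 ± 0.89 (adjusted p = 0.779) for Bgn. For Fmod, Prelp and Ogn it was 0.72, 0.56 and 0.82, with limma adjusted p of 0.600, 0.696 and 0.464. The 95% interval of the difference ran from -1.69 to 3.94 for Kera and from -1.49 to 2.49 for Bgn, so changes of several-fold in either direction lie within it, and the interval of Ogn ran from -0.55 to 2.20. In an exact two-sided permutation test over the 8 corneas the p of Kera was 0.514, where 4 against 4 can give no less than 0.0286.

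The strains did not overlap in 1 of the 9 members, Aspn, where 18.3% of all genes tested did not overlap. Aspn was 2.25 ± 0.08 in BALB/cN and 2.09 ± 0.01 in C57BL/6N (SD, n = 4 each), a difference of 0.16 ± 0.04 (SE) that missed the threshold (limma adjusted p = 0.0429, and 11.2% of all genes passed an adjusted p of 0.05), with an exact permutation p of 0.0286, the smallest possible. Centring each cornea on the stromal reference turned it to -0.34, and the reads behind so low a value are unknown here. Omd differed by -0.01 ± 0.16 (limma adjusted p = 0.990), with an interval from -0.35 to 0.34.

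Without the 3 corneas of low stromal transcripts the direction turned. These corneas are set apart by the level of stromal transcripts, which is close to the outcome itself, and the 3 BALB/cN and 2 C57BL/6N corneas left could give an exact p of no less than 0.2, so these values describe the remaining corneas. The limma fit then placed Kera at -0.46 ± 0.04 (SE, adjusted p = 0.00237), Dcn at -0.47 ± 0.06 (adjusted p = 0.00632) and Bgn at -0.61 ± 0.06 (adjusted p = 0.0027), called lower in BALB/cN, where 1.74% of all genes were called lower and 3.35% called in all. Prelp (-0.37), Fmod (-0.31) and Lum (-0.14) were not called, with limma adjusted p of 0.0146, 0.251 and 0.226, and Ogn was at 0.02. In the same fit Col1a1 was at -0.41, 5 of the 18 stromal reference genes were called lower and 1 higher, and their median was -0.28. The stromal reference mean of those corneas was 12.26 to 12.73 in BALB/cN and 12.63 and 12.68 in C57BL/6N. That mean includes Col3a1, called higher in BALB/cN over the 8 corneas (2.45), and Ptgds. Ptgds was at 11.37, 6.42 and 12.58 in BALB/cN replicates 1, 3 and 4 and at 9.93 and 10.63 in C57BL/6N replicates 1 and 2. The part of these genes in the mean, and in the fits that use it, was not tested.

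With all 8 corneas kept and the stromal reference mean as a covariate, 0 of 9 members were called, beside 9.06% of all genes. Bgn was then at -0.41 ± 0.16 (SE, limma adjusted p = 0.134), Dcn at -0.27 ± 0.17 (adjusted p = 0.339), Kera at -0.16 ± 0.24 (adjusted p = 0.722) and Ogn at 0.19 ± 0.12 (adjusted p = 0.350). Fmod (-0.036) and Prelp (-0.21) were also below 0 in this fit. Centring each cornea on the stromal reference instead left these members at or above 0, with Kera at 0.62, Dcn at 0.30, Fmod at 0.22, Prelp at 0.06 and Bgn at 0.0003, and limma adjusted p of 0.696 or more. The sign of these differences thus depended on how the level of other stromal transcripts entered the fit, and 0 members were called either way.

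**Figure D5:**
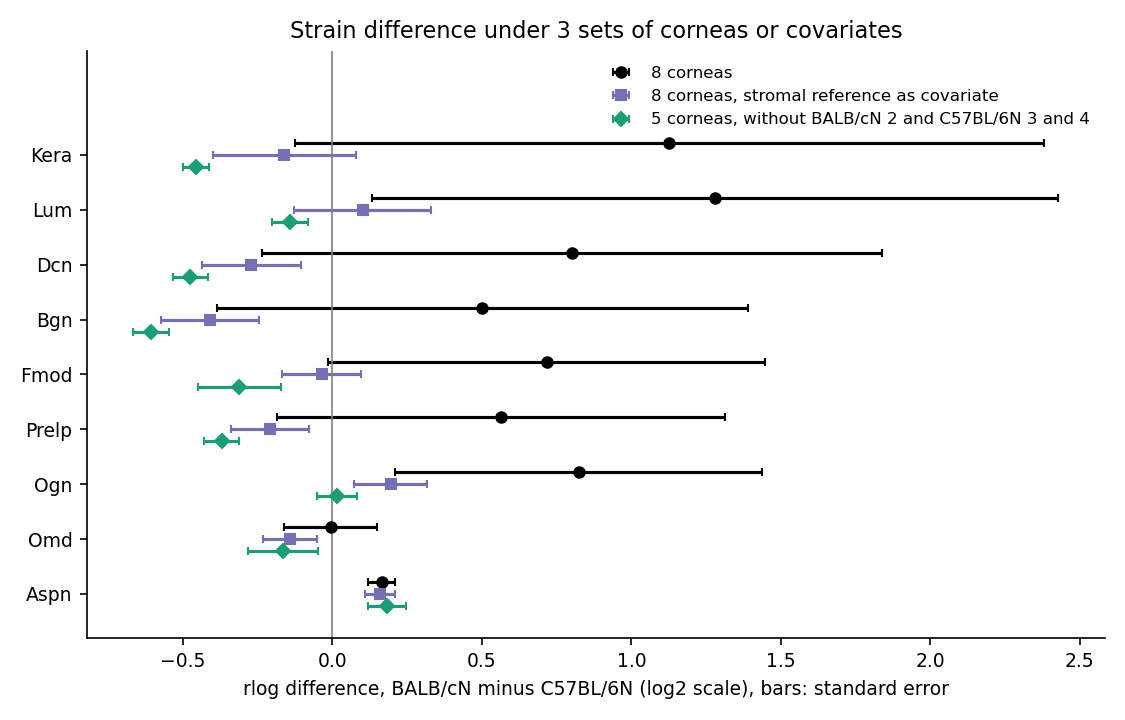
Difference in rlog value, BALB/cN minus C57BL/6N (x axis, log2 scale), with its standard error, for the 9 members tested, from all 8 corneas (circles), from 8 corneas with the stromal reference as covariate (squares) and from the 5 corneas left without BALB/cN replicate 2 and C57BL/6N replicates 3 and 4 (diamonds). Kera moves from 1.13 to -0.16 and -0.46 and Bgn from 0.50 to -0.41 and -0.61, while Aspn stays between 0.16 and 0.18.

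The members lie in 4 places of the genome (GRCm38), and some neighbours differed widely in level. Dcn, Lum, Kera and Epyc lie on the forward strand within 202.8 kb at chr10:97479609-97682454. There Dcn and Kera were alike in mean level per length, and Epyc was far below, beside 3 of the 4 most abundant members. Aspn, Omd and Ogn lie within 80.1 kb at chr13:49544443-49624501, and only Ogn of these was abundant. Prelp and Fmod, alike in level, lie on opposite strands within 138.0 kb at chr1:133910304-134048277, and Bgn lies at chrX:73483602-73495933. Cenpp, a kinetochore gene on the reverse strand, spans the chromosome 13 cluster at a mean rlog value of 6.07 with ranges of 0.11 and 0.26, so it did not share the spread of Ogn. Of the nearest tested genes outside the clusters, Btg1, which restrains cell division, was called lower in BALB/cN (-0.36, limma adjusted p = 0.00326). It lies before Dcn but ends at chr10:96622809, a gap longer than the cluster itself. The others (Optc, Btg2, C030005K15Rik, Ecm2, Nol8, Haus7 and Dusp9) were not called.

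RefSeq promoter windows of GRCm38.p6, from 250 bases before to 50 after an annotated start, were matched for 8 of the 10 members, all but Lum and Dcn. Those of the abundant members that moved together are shown with that of Omd, the low neighbour of Ogn. Capitals mark, on either strand, the TATA box letters TATAAA, the CCAAT box and the GC box letters GGGCGG, and all sequences read 5′ to 3′ on the strand of the gene. The RefSeq start of Kera lies 326 bases downstream of the gene's start (97606879) in the annotation used for coordinates. The whole Kera window thus lies within the annotated gene, and its letters may not be those of a promoter. The RefSeq starts of the other genes shown lie 0 to 31 bases from the starts in that annotation.
Kera, chr10:97606955-97607254, forward strand: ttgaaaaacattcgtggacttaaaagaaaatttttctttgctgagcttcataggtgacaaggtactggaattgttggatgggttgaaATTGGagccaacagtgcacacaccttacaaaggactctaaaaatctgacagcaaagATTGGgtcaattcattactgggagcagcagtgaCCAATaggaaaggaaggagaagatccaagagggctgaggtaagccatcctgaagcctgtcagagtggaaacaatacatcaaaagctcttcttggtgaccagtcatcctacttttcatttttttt
Bgn, chrX:73483351-73483650, forward strand: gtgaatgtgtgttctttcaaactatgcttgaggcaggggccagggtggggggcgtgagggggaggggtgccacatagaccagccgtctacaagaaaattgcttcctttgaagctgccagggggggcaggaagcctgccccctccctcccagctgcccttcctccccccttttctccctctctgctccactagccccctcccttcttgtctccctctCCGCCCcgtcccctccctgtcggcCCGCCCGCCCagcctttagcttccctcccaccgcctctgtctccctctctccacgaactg
Fmod, chr1:134037004-134037303, forward strand: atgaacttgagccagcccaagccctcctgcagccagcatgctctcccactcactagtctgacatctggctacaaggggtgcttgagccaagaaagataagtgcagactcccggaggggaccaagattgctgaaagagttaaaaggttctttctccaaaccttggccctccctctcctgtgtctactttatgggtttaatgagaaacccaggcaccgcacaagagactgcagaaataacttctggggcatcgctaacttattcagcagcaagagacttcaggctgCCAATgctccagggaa
Prelp, chr1:133921352-133921651, reverse strand: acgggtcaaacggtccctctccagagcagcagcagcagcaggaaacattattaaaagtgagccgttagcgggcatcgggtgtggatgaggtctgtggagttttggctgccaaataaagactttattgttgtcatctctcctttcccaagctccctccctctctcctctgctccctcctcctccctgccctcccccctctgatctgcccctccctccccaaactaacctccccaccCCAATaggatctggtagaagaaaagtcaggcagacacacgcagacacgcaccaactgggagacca
Ogn, chr13:49607765-49608064, forward strand: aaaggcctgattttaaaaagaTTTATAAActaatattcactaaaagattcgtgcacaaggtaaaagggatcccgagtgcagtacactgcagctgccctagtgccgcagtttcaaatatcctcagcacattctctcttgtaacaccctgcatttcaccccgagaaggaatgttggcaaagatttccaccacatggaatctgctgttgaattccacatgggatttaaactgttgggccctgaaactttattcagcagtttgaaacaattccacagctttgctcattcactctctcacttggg
Omd, chr13:49582212-49582511, forward strand: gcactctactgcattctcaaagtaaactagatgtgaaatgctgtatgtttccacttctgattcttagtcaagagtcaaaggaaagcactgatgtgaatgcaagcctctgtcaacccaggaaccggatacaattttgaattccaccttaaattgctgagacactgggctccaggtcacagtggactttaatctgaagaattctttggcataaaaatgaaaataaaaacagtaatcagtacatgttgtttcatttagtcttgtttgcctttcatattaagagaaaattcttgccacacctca

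The windows had little in common in these letters. Counting from 0 at the start base, the Kera window held CCAAT at -163 and -107 on the reverse strand and at -74 on the forward strand, and neither of the other motifs. The Bgn window held GGGCGG at -34, -10 and -6 on the reverse strand, the last 2 overlapping, and was rich in G and C (63.7%, against 41.0% for Kera and a median of 52.7% over all 32851 promoters). CCAAT stood at -15 in Prelp and at 34 in Fmod, and TATAAA at -229 and -227 in Ogn, on opposite strands and overlapping. The Omd window held none of the 3. Among all promoter windows 37.4% held CCAAT, 35.7% GGGCGG and 13.6% TATAAA, so single matches are common.

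Enzymes that build the sugar chains were mostly not called, as held for most genes tested (2.83% called higher in BALB/cN and 2.91% lower). Of 14 keratan sulfate synthesis genes tested, 1 was higher in BALB/cN and 0 lower, with a median difference of 0.10 beside 0.01 over all genes. The called gene was St3gal4, a sialyltransferase (0.68 ± 0.12 SE, limma adjusted p = 0.00591). Those of the highest mean rlog values, without regard to length, were the galactosyltransferases B4galt1 and B4galt3 and the sialyltransferase St3gal2. They ranged over no more than 0.24 in either strain. Chst5, the sulfotransferase that sulfates keratan sulfate in the mouse cornea, was at 10.14, 9.62, 10.56 and 10.36 in BALB/cN and at 10.89, 10.75, 9.22 and 8.78 in C57BL/6N, and so shared the corneas' order with the core proteins. B3gnt7, which extends the chain and was singled out after its values were seen, had ranges of 1.36 and 2.12. Chst2, another sulfotransferase singled out in the same way, was at 7.12, 6.37, 7.17 and 7.40 in BALB/cN and at 8.12, 8.13, 6.73 and 6.57 in C57BL/6N. Its difference was -0.38 (limma adjusted p = 0.607) over the 8 corneas, -0.77 (adjusted p = 0.000219) with the stromal covariate and -0.90 (adjusted p = 0.00552) in the 5 corneas. With the covariate Fut8 and St3gal4 of this list were called higher, beside 9.06% of all genes called.

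Of 25 chondroitin and dermatan sulfate synthesis genes tested, 1 was higher and 0 lower, beside 2.83% and 2.91% of all genes, with a median difference of 0.07. It was Pxylp1, a phosphatase that acts on the xylose of the linker (0.43 ± 0.07 SE, limma adjusted p = 0.00439), and the call was lost with corneas centred on their median gene (0.36, adjusted p = 0.110). Fam20b, the kinase that acts on the same sugar, had the highest mean rlog value of the list, without regard to length. It differed by 0.23 (limma adjusted p = 0.0192). Chst15 and Chsy3 differed by 0.30 and 0.31, and B3gat3 by -0.002 (limma adjusted p = 0.986). None of 6 sulfate supply genes was called. The limma adjusted p was 0.112 or more for the 4 of the highest mean rlog values, among them the sulfate activating enzymes Papss1 and Papss2.

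Among 12 ligands and receptors known to bind the core proteins, 2 were higher in BALB/cN and 0 lower, beside 2.83% and 2.91% of all genes. Their median difference was 0.21. Tgfb1, whose product decorin, biglycan and fibromodulin bind, was at 11.57, 11.54, 11.78 and 11.66 in BALB/cN and at 11.11, 11.17, 10.95 and 10.84 in C57BL/6N, with no overlap (0.62 ± 0.08 SE, limma adjusted p = 0.00126). P2rx7, a purine receptor through which biglycan signals, was higher by 0.53 ± 0.08 (SE, limma adjusted p = 0.00172), and by 0.45 (adjusted p = 0.0266) with median centring, which lost the call. Tgfb1 remained called in the 5 corneas at 0.53 (limma adjusted p = 0.00869), where P2rx7 was at 0.56 (adjusted p = 0.0150). Both calls, unlike the levels of the core proteins, came with little spread within a strain, of at most 0.33 for Tgfb1. Egfr, Met and Igf1r, receptors that decorin binds, differed by -0.21, 0.08 and 0.13 and were not called over the 8 corneas. With the stromal covariate Egfr was called lower (-0.15, limma adjusted p = 0.00939) and Tgfb1, Tgfb2 and P2rx7 higher, beside 9.06% of all genes called.

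The remaining small leucine-rich proteoglycan genes were low or unlike the abundant members. None of 7 tested was called, beside 5.74% of all genes tested. Tsku, or tsukushi, the most abundant with a mean rlog value of 9.71, was at 10.26, 9.89, 10.06 and 9.97 in BALB/cN and at 9.70, 9.79, 9.0 and 9.03 in C57BL/6N (0.67 ± 0.19 SE, limma adjusted p = 0.0499), and was called higher with the stromal covariate (0.49, adjusted p = 0.0031). Podn had its largest values in BALB/cN replicates 1 (7.52) and 4 (8.15), the corneas with lens and pigment transcripts, and their part in its values was not tested. Chadl and Ecm2 were at means of 5.16 and 4.73.

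Partners of the proteoglycans in collagen fibrils moved in part with them. Of the 18 stromal reference genes 1 was called, Col3a1, higher in BALB/cN at 11.30, 10.64, 11.27 and 11.57 against 9.21, 9.44, 8.28 and 8.05 (2.45 ± 0.32 SE, limma adjusted p = 0.000938). Thy1, a fibroblast marker of that list, was low at 2.95 to 3.49. Within BALB/cN, Ptgds was high in the corneas with pigment transcripts (11.37 and 12.58 in replicates 1 and 4 against 7.09 and 6.42). In C57BL/6N it was highest in replicate 2 (10.63, against 9.93 in replicate 1), where Tyrp1 was lower than in replicate 1 (8.07 against 9.85). None of 20 collagen assembly partners was called over the 8 corneas, beside 5.74% of all genes tested. With the stromal covariate the limma fit called Tgfbi higher (0.16) and Tnxb (-0.61) and Fn1 (-0.58) lower, and in the 5 corneas it called Fn1 (-0.51), Dpt (-0.81) and Loxl1 (-0.42) lower. Fn1, or fibronectin, was also called with median centring (-0.55, limma adjusted p = 0.00547). Plod1, a lysyl hydroxylase, ranged over 1.32 and 2.35 within strains, whereas Tgfbi, a matrix adhesion protein that the epithelium makes too, ranged over 0.18 and 0.21. Among cell type markers, 1 of 10 epithelial genes was called, Epcam (0.73 ± 0.06 SE, limma adjusted p = 3.82e-05), and none of the tested genes of the corneal endothelium, tendon and sclera, lens, pigment cell, muscle, macrophage and vessel lists. Tnmd, a tendon marker, was at a mean of 6.17.

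Genes outside the family followed the same corneas. The genes nearest to the mean profile of the 7 abundant members, each centred on its own mean and compared by the root mean square difference over the 8 corneas, were Agtr2 (0.136), an angiotensin receptor, A2m (0.149), a protease inhibitor, Serpinf1 (0.172), which encodes the antiangiogenic factor PEDF, Mfap4 (0.219), a microfibril protein, and Dpt (0.245), or dermatopontin, which binds decorin. Among the members the same measure was 0.182 for Bgn, 0.193 for Dcn, 0.295 for Prelp, 0.327 for Fmod, 0.430 for Lum, 0.484 for Ogn and 0.545 for Kera. Biglycan and decorin were thus the nearest members, with keratocan varying more and osteoglycin less. The profile is the mean of these 7 members, so those of middle spread lie near it by construction. Serpinf1 was at 12.66, 10.98, 12.67 and 12.77 in BALB/cN and at 13.17, 13.04, 9.68 and 9.82 in C57BL/6N.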

How the data were processed

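Per the labels and the study's methods, total RNA of whole naive corneas was made into strand-specific libraries and sequenced as paired ends. The authors aligned reads with TopHat2 2.1.1 to strain-specific genomes built on GRCm38, counted reads per gene with HTSeq 0.7.1 and deposited rlog values (regularized log2 scale, from DESeq2 1.30) with a decimal comma. Rlog shrinks values of low genes towards their mean. Counts and depth were not analysed here. All 8 columns of samples were used.

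The 25402 genes averaging 0 or more on the rlog scale were fitted with limma 3.58.1 (R 4.3.3) with a variance trend and 4 corneas per strain, adjusted by the Benjamini-Hochberg method and called at an adjusted p of 0.01 or less. The study's own test used counts. The fit was tested on simulated data. Exact permutation tests used scipy 1.17.1. Exon lengths and positions came from a GENCODE annotation of GRCm38. The text names the members, called genes and up to 4 genes of the highest mean rlog values in each of 15 lists, nearest neighbours and the 5 most alike genes. Members and lists were chosen with earlier results of these data known. Alternatives were another variance model, filter, scaling, covariate, threshold or set of corneas.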

Additional observations from a re-analysis of the deposited data

Results flagged for a closer look

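In 50 groups of 4 corneas (each member and each list mean in each strain), 10 had a highest or lowest cornea whose gap to the nearest of the others, as a share of the group's range, was above Dixon's 95% critical value, where chance gives about 2.5. The groups of a strain share the same 4 corneas, so the flags are not separate tests and the excess over 2.5 is not evidence by itself. BALB/cN replicate 2 was the far lowest cornea of its strain for Kera (0.972), Lum (0.959), Prelp (0.952), Dcn (0.945), Bgn (0.937) and Ogn (0.891). The same cornea was far lowest for the mean of the corneal endothelium genes (0.917) and of the collagen assembly partners (0.854). In C57BL/6N, where 2 corneas were low, none of these was flagged. Aspn was flagged in C57BL/6N for replicate 3 (0.979), at 2.11 against 2.08 in the others, and Epyc for replicate 1 (0.970), at -0.92 against -1.0.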

How the results depend on the processing

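The counts of 0 members higher and 0 lower held under all alternatives except that 1 (Aspn) was higher at an adjusted p of 0.05 and 3 (Kera, Dcn and Bgn) were lower without the 3 corneas of low stromal transcripts. Directions turned with the stromal covariate for Kera (-0.16), Dcn (-0.27), Bgn (-0.41), Fmod (-0.036) and Prelp (-0.21), and without the 3 corneas for Kera (-0.46), Lum (-0.14), Dcn (-0.47), Bgn (-0.61), Fmod (-0.31) and Prelp (-0.37). Aspn turned to -0.34 when centred on the stromal reference and could not be tested at a mean of at least log2(10). Leaving out 1 cornea gave Kera 0.24 to 1.92, Lum 0.50 to 2.02, Dcn 0.13 to 1.46, Bgn -0.12 (without C57BL/6N replicate 3) to 1.08, Fmod 0.24 to 1.23, Prelp 0.07 to 1.05, Ogn 0.39 to 1.22, Omd -0.091 to 0.11 and Aspn 0.13 to 0.19, with 0 members called each time. The 1458 calls over all genes became 958 with median centring, 54 centred on the stromal reference (which moved the median gene by -0.49), 2301 with the covariate, 2842 at an adjusted p of 0.05, 852 without the 3 corneas and 953 to 1163 without 1 cornea. An empirical null left 0 (1725 at an unadjusted p under 0.05). The causes were not tested. Replicate numbers did not pair the corneas (correlations of same-numbered deviations 0.31, -0.53, -0.20 and -0.45). With the number as a replicate block, 554 genes and 0 members were called. Calls of St3gal4 and Pxylp1 were lost without most single corneas and, with those of Tgfb1, P2rx7 and Col3a1, under the block. Median centring lost Pxylp1 and P2rx7. The unknown depth limits what can be said of Omd, Aspn and Epyc.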
